A study of Mus musculus with 30 samples.

Results

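The 8 sarcomeric myosin chain genes Myh6, Myh7, Myh7b, Myl1, Myl2, Myl3, Myl4 and Myl7 were followed in mouse hearts that carried the p.S55L form of the mitochondrial protein CHCHD10 or were wild type (WT). They were chosen by symbol as the heavy and light chain isoforms of striated muscle myosin, and all 8 had a row in both deposited count tables, among 78258 genes in the postpartum study and 56691 genes in the diet study. The postpartum study held S55L hearts taken at postpartum day 0 after breeding at 65 days (S55L PP), S55L hearts of unbred mice aged 100 days (S55L naive), and WT PP and WT naive hearts of the same histories. The diet study held S55L hearts taken at postpartum day 0 after an EH301 diet or a control diet during breeding, and no WT hearts. EH301 contains nicotinamide riboside, a precursor of NAD, together with the plant compound pterostilbene. The age of the bred mice when hearts were taken is not given in the sources used here. Any age difference from the naive mice cannot be told apart from pregnancy. The zygosity of the S55L allele and the sex of the naive mice are not given in the sources used here.

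Each GEO title was 1 heart library, with 5 per group. A pair of columns in WT PP and a pair in S55L PP held identical counts and were each counted as 1 library, which left 4 libraries in each of those groups. A column with identical counts stood under both diets and was left out, which left 4 libraries per diet. Reads on genes ran between 2755500 and 4157372 in S55L PP, 3369420 and 5131316 in S55L naive, 1897249 and 2949993 in WT PP, and 1418715 and 2307283 in WT naive. They ran between 1141997 and 3048461 under the EH301 diet and between 466651 and 2982870 under the control diet. Each deposited column name holds a number of its own, also where the counts are identical, and the meaning of that number is not given in the sources used here. Nothing in the labels states which libraries came from separate animals. The spread behind each p-value is that between libraries, which may be technical. Cardiomyocyte markers other than myosins (12 genes such as Actc1, Tnnt2 and Ttn) summed to between 50367 and 97908 CPM (counts scaled to library size) in the postpartum study, in keeping with heart muscle, and 10 skeletal muscle markers summed to at most 13.1 CPM there.

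Myosin is the motor of the thick filament. Each molecule has a pair of heavy chains, which carry the ATPase and the rod, and the neck of each heavy chain binds an essential and a regulatory light chain. The adult mouse ventricle uses mainly the fast alpha heavy chain (Myh6) with the ventricular light chains (Myl2, regulatory; Myl3, essential), whereas the fetal ventricle uses more of the slow beta heavy chain (Myh7) and of Myl4, the atrial and fetal essential chain. A shift back towards Myh7 is a well known feature of the stressed or hypothyroid rodent heart, since thyroid hormone activates Myh6 and represses Myh7. The libraries read 1 tag per polyadenylated molecule near its 3' end, so tag numbers need no correction for gene length, although genes may differ in how readily they give a tag.

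Myh6 and Myh7 stand next to each other in the genome, at chr14:54941921-54966927 and chr14:54970684-54994626 on the minus strand of GRCm38 (GENCODE annotation), and each holds a microRNA in an intron, as does Myh7b (chr2:155611212-155634307, plus strand). The 3 microRNAs, shown because they are encoded in the genes whose balance differed, are given here from RefSeq (GRCm38.p6), 5' to 3', with the seed (bases 2 to 8) in capitals.
miR-208a-3p (in Myh6): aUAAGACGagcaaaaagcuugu
miR-208b-3p (in Myh7): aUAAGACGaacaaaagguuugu
miR-499-5p (in Myh7b): uUAAGACUugcagugauguuu
The seed was the same in miR-208a-3p and miR-208b-3p, and that of miR-499-5p was UAAGACU. Mature microRNAs carry no poly(A) tail and were not analysed here.

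The 250 bases before the start site of both heavy chain genes are shown because Myh6 and Myh7 moved in opposite directions in S55L hearts (RefSeq, GRCm38.p6, gene strand, minus; chr14:54966608-54966857 for Myh6 and chr14:54994627-54994876 for the first of the 2 Myh7 entries). Capitals mark the letters CATTCC or their complement GGAATG, the MCAT element bound by TEAD factors, and AGGTNA or its complement TNACCT, a half-site of nuclear receptors such as the thyroid hormone receptors.
Myh6 promoter: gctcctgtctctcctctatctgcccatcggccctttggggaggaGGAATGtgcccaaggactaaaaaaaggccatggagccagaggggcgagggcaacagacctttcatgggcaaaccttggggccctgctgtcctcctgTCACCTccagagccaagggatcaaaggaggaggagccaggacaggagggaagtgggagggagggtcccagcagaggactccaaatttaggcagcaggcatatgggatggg
Myh7 promoter: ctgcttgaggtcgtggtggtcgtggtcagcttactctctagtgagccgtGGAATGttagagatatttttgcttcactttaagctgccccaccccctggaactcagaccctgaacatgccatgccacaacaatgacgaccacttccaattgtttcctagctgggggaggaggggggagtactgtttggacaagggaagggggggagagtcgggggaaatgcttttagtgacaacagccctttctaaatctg
Both windows held 1 MCAT match, starting at -206 in Myh6 and -201 in Myh7, and the Myh6 window also held 1 receptor half-site, starting at -110. Positions count from the RefSeq start sites. The Myh6 window lies inside the GENCODE span of Myh6 given above, whose start is further upstream, while the Myh7 window adjoins the GENCODE span of Myh7. All 8 genes had a promoter entry, and the first entries of 5 of them held an MCAT match and of 6 of them a half-site match on either strand. Over all 32851 RefSeq promoter windows of this length, 12.6% held the MCAT letters and 37.2% the half-site letters. Such matches are descriptions of the letters and not of binding.

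Myh7, the beta heavy chain, rose in S55L hearts in both states. In naive hearts it had 551, 1123, 1269, 727 and 1192 CPM in S55L, against 84.0, 53.1, 131.6, 45.9 and 44.0 CPM in WT. At postpartum day 0 it had 1476, 1068, 1735 and 693 CPM in S55L PP, against 91.8, 94.3, 41.7 and 162.8 CPM in WT PP. In neither state did the groups overlap. The log2 fold change was 3.76 (SE 0.42, adjusted p = 2.8e-06) in naive hearts and 3.66 (SE 0.46, adjusted p = 1.6e-05) in postpartum hearts, by edgeR's quasi-likelihood test over 11945 genes with Benjamini-Hochberg adjustment.

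Myh6, the alpha heavy chain, fell in S55L hearts. In naive hearts it had 8034, 8311, 14860, 10984 and 9717 CPM in S55L, against 14402, 15491, 16780, 14691 and 15838 CPM in WT. One S55L naive heart thus lay inside the WT range. At postpartum day 0 it had 7003, 8394, 8450 and 8288 CPM in S55L PP, against 14618, 16885, 13413 and 18668 CPM in WT PP, and the groups did not overlap. The log2 fold change was -0.57 (SE 0.16, adjusted p = 0.0042) in naive hearts and -0.98 (SE 0.18, adjusted p = 8.1e-05) in postpartum hearts. With total counts as the scaling, which moved the median log2 fold change of all genes by 0.24 in naive and 0.27 in postpartum hearts, the naive value of Myh6 was -0.32 and no longer called (edgeR, adjusted p = 0.081), and with the plate column in the fit Myh6 was called in neither state (adjusted p = 0.35 and 0.094).

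Within each library, where scaling plays no part, Myh7 made up 17.4, 11.3, 17.0 and 7.71% of the Myh6 and Myh7 tags in S55L PP, 6.42, 11.9, 7.87, 6.21 and 10.9% in S55L naive, 0.624, 0.556, 0.310 and 0.865% in WT PP, and 0.580, 0.341, 0.778, 0.311 and 0.277% in WT naive. The group means were 13.4 ± 4.69% in S55L PP (SD, n = 4), 8.66 ± 2.61% in S55L naive (SD, n = 5), 0.588 ± 0.228% in WT PP (SD, n = 4) and 0.458 ± 0.215% in WT naive (SD, n = 5). Every S55L heart stood above every WT heart, while the PP and naive ranges overlapped within each genotype. The mean log2 Myh7 to Myh6 ratio was higher by 4.43 in S55L naive than in WT naive hearts, a 21.5-fold difference (two-sided exact permutation test, p = 0.0079, adjusted p = 0.048 over 30 isoform ratios and comparisons). Without any 1 WT naive library it was 4.28 to 4.65 with adjusted p = 0.0595 (exact permutation test). It was higher by 4.72 in S55L PP than in WT PP hearts, a 26.3-fold difference, with an exact p = 0.029 that is the smallest 4 against 4 libraries can give (adjusted p = 0.078). Alpha heavy chain tags were the larger part in all 18 hearts of the postpartum study.

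**Figure D1:**
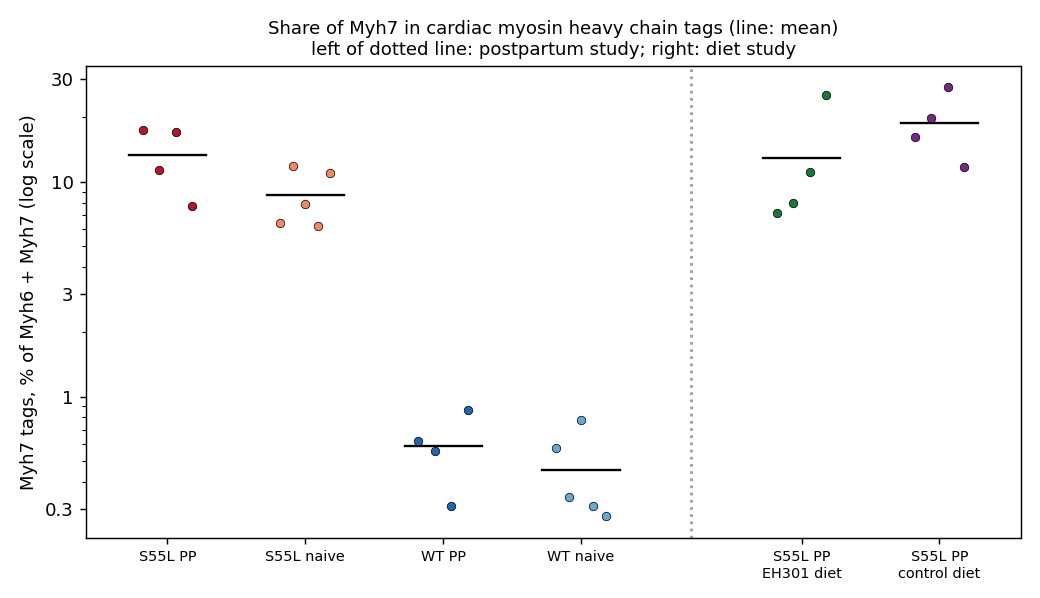
Myh7 tags as a percentage of Myh6 and Myh7 tags together, in each heart (points, log scale) with the group mean (line), for the 4 groups of the postpartum study and the 2 diets. The S55L hearts of the postpartum study sit between 6.21% and 17.4%, all above the WT hearts, which lie between 0.277% and 0.865%.

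The ends of the Myh6 and Myh7 transcripts were alike. Their last 300 bases were 63.9% identical and shared a run of 173 identical bases that ends 81 bases before the end of the Myh6 transcript and 127 bases before that of Myh7 (GENCODE reference transcripts), whereas no run shared by Myh6 and a light chain exceeded 10 bases. A read lying wholly inside the shared run cannot be placed on either gene. The read length, and how many of the reads set aside came from this run, are not given in the sources used here. Reads set aside as mapping to several places were between 17.5% and 21.2% of all reads in S55L libraries and between 24.7% and 27.3% in WT libraries of the postpartum study. WT hearts, with 18973 to 52058 Myh6 tags each, had 65 to 454 Myh7 tags.

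Mhrt, a long non-coding RNA made antisense to Myh7, was added after its values were seen. It had 66.7, 52.0, 54.4, 77.0 and 48.4 CPM in S55L naive hearts, against 485, 358, 341, 404 and 506 CPM in WT naive hearts. At postpartum day 0 it had 63.2, 43.1, 43.6 and 29.0 CPM in S55L PP hearts, against 420.0, 421, 450.0 and 195.8 CPM in WT PP hearts. The groups did not overlap, and the log2 fold change was -2.81 (SE 0.22, edgeR adjusted p = 2.7e-10) in naive and -3.05 (SE 0.25, adjusted p = 1.2e-09) in postpartum hearts. Mhrt thus fell where Myh7 rose. The strand setting of the counting is not given in the sources used here, so reads of Myh7 and of its antisense partner may not have been told apart.

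**Figure D2:**
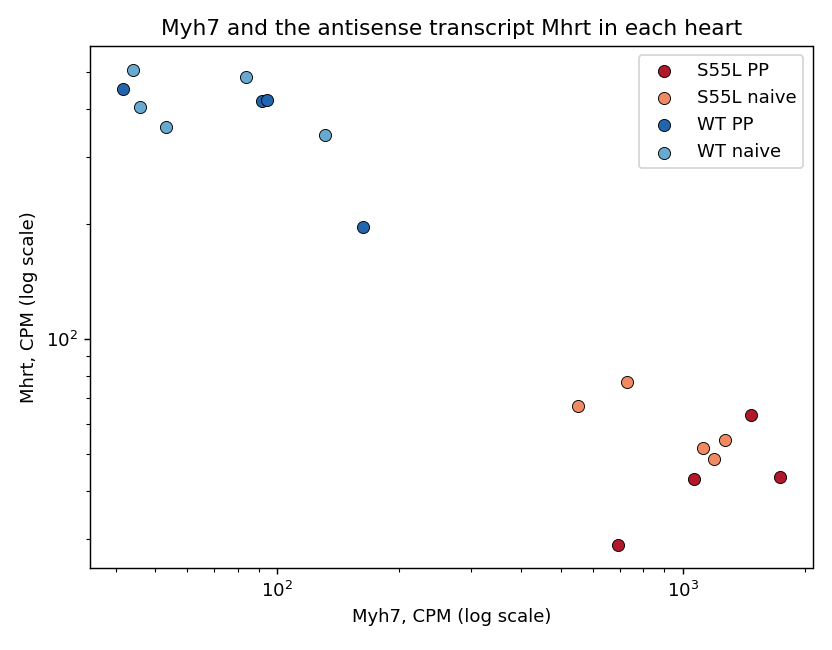
Mhrt against Myh7 in each heart of the postpartum study, both in CPM on log scales, coloured by group. S55L hearts lie at 551 to 1735 CPM of Myh7 and 29.0 to 77.0 CPM of Mhrt, and WT hearts at 41.7 to 162.8 CPM of Myh7 and 195.8 to 506 CPM of Mhrt, with no overlap on either axis.

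Myh7b, a slow-type heavy chain gene that hosts miR-499 and whose heart transcript is known to be spliced largely into a non-productive form, fell. It had 1.67, 3.75, 4.91, 4.55 and 1.74 CPM in S55L naive hearts, against 15.4, 14.7, 21.1, 20.7 and 19.3 CPM in WT naive hearts. It had 3.63, 1.80, 4.85 and 1.56 CPM in S55L PP hearts, against 23.2, 22.3, 16.3 and 12.2 CPM in WT PP hearts. These values rest on 5 to 22 tags per S55L library and 18 to 64 per WT library. The groups did not overlap in either state, with log2 fold changes of -2.46 in naive (SE 0.30, edgeR adjusted p = 2.1e-07) and -2.63 in postpartum hearts (SE 0.34, adjusted p = 9.5e-07). Both genes are slow-type heavy chains, and the log2 Myh7b to Myh7 ratio was lower by 6.37 in S55L naive than in WT naive hearts (exact permutation test, p = 0.0079, adjusted p = 0.048).

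Among the regulatory light chains, Myl2, the ventricular chain whose phosphorylation tunes contraction, fell. It had 5115, 6115, 7085, 6887 and 5534 CPM in S55L naive hearts, against 14988, 15402, 15918, 14102 and 14917 CPM in WT naive hearts. It had 7420, 5055, 5416 and 4595 CPM in S55L PP hearts, against 14028, 12421, 12686 and 9747 CPM in WT PP hearts. The groups did not overlap, and the log2 fold change was -1.29 in naive (SE 0.15, edgeR adjusted p = 1.0e-07) and -1.12 in postpartum hearts (SE 0.17, adjusted p = 7.6e-06).

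Myl7, the atrial regulatory chain, was near 0 throughout and passed the count filter in neither study. It had 6 tags in all in S55L PP hearts, 3 in S55L naive hearts and 0 in the WT hearts, where 0 tags allow up to 0.310 CPM in WT PP and 0.313 CPM in WT naive over the group (3 counts; this covers counting error only). Sln, sarcolipin, another gene that marks atrial muscle, was at 0 in S55L PP, S55L naive and WT naive and reached at most 1.45 CPM in WT PP. Nothing can be said of a Myl7 to Myl2 shift from 0 to 3 tags per heart.

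Among the essential light chains, Myl3, the chain shared by ventricle and slow skeletal muscle, was the 1 that fell. It had 3286, 3700, 4310, 5632 and 4814 CPM in S55L naive hearts, against 9536, 16115, 16024, 17898 and 15442 CPM in WT naive hearts. It had 4684, 3389, 5270 and 3189 CPM in S55L PP hearts, against 10482, 15524, 15469 and 13471 CPM in WT PP hearts. No S55L heart reached the lowest WT heart, and the log2 fold change was -1.79 in naive (SE 0.19, edgeR adjusted p = 2.1e-08) and -1.73 in postpartum hearts (SE 0.21, adjusted p = 3.3e-07).

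Myl4, the essential chain of atrium and fetal ventricle, was counted in few tags. It passed the count filter only through the S55L hearts, where it is higher. It failed the filter after thinning to the smallest library, and when only the naive groups were fitted. Naive S55L hearts had 21, 27, 18, 10 and 19 tags (4.04 ± 0.737 CPM, SD, n = 5), against 2, 1, 0, 5 and 2 tags in naive WT hearts (1.14 ± 1.05 CPM, SD, n = 5). The S55L PP hearts had 17, 23, 15 and 11 tags (4.35 ± 0.769 CPM, SD, n = 4), against 5, 5, 3 and 6 tags in WT PP hearts (2.14 ± 0.461 CPM, SD, n = 4). Myl4 rose in naive hearts by 1.78 on the log2 scale (SE 0.44, edgeR adjusted p = 0.0017; 0.093 with the plate column in the fit). In postpartum hearts the groups did not overlap, yet the value of 1.03 (SE 0.41) missed the threshold with adjusted p = 0.053, and was called with total counts as the scaling (1.29, adjusted p = 0.014), with all deposited columns as if separate (1.11, adjusted p = 0.010), or without WT naive 3 (1.03, adjusted p = 0.036) or WT naive 4 (1.03, adjusted p = 0.038).

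Myl1, the essential chain of fast skeletal and embryonic muscle, was higher in S55L naive hearts. It had 42.1, 44.0, 46.4, 32.1 and 56.3 CPM there, against 17.5, 30.2, 24.0, 31.0 and 24.2 CPM in WT naive hearts, and the groups did not overlap (log2 fold change 0.81, SE 0.19, edgeR adjusted p = 0.0013). At postpartum day 0 it had 48.4, 73.7, 70.0 and 64.8 CPM in S55L PP, against 30.8, 51.9, 45.3 and 59.5 CPM in WT PP, and the ranges overlapped. The postpartum difference of 0.46 (SE 0.20) had adjusted p = 0.082. With the replicate number as a block, a pairing inferred from these same counts, it was 0.47 (edgeR, adjusted p = 0.032). With total counts it was 0.73 (adjusted p = 0.0037). Without S55L PP 1 or without WT PP 5 it was 0.57 and 0.61 (adjusted p = 0.029 and 0.030). It was also called by limma voom (0.56, adjusted p = 0.014), with no filter (0.54, adjusted p = 0.034), with the plate column in the fit (1.07, adjusted p = 0.046) and with all deposited columns (0.49, adjusted p = 0.042).

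**Figure D3:**
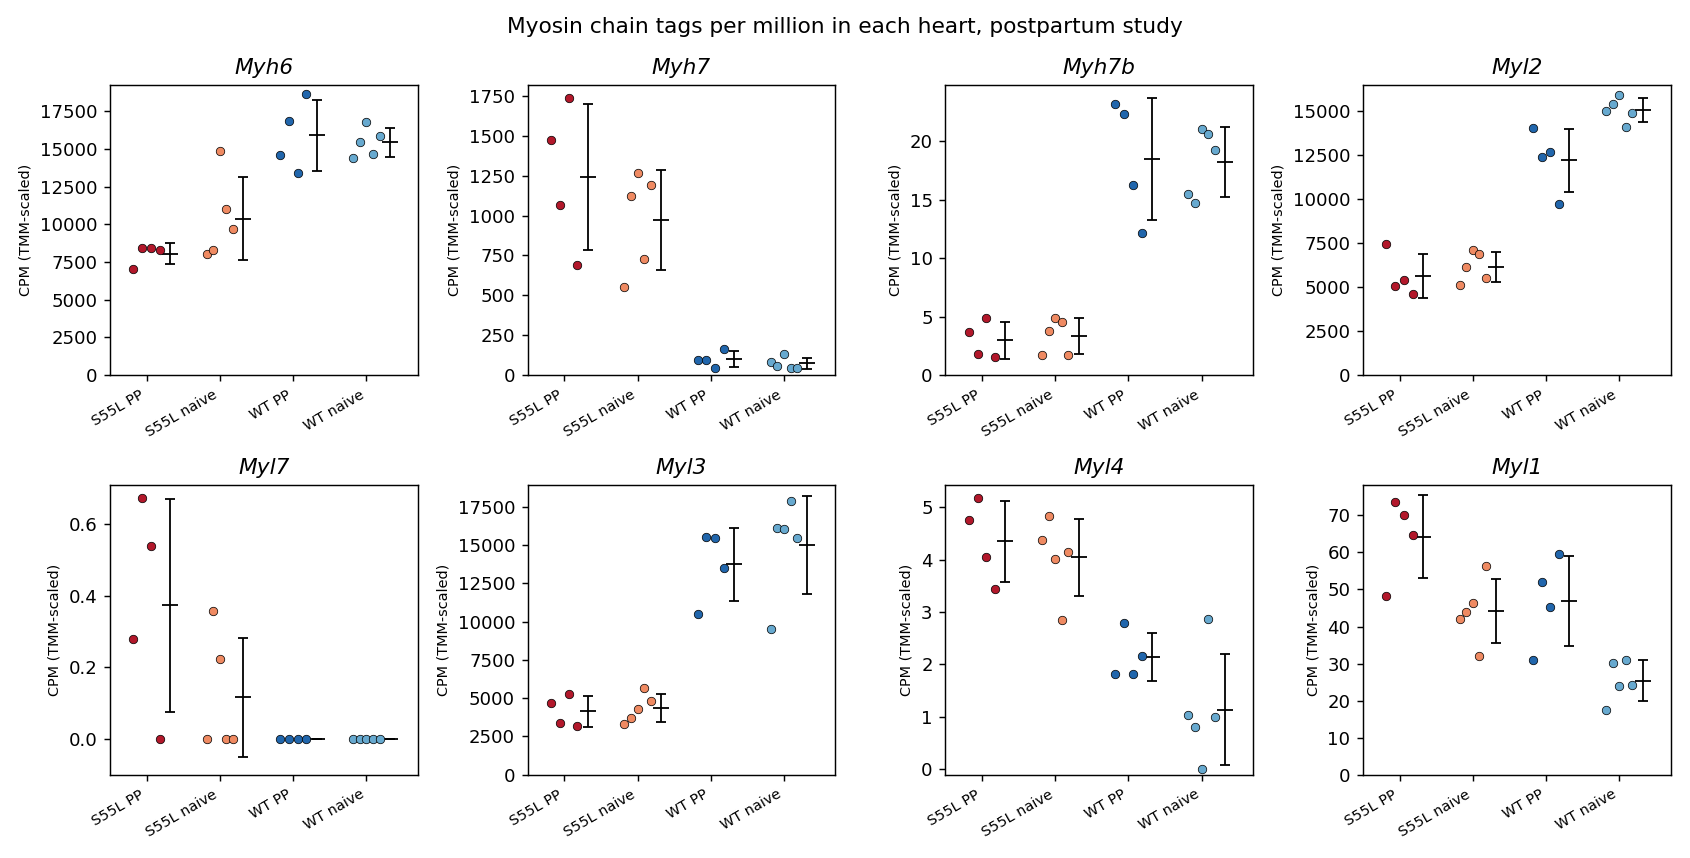
TMM-scaled CPM of the 8 myosin chain genes in each heart of the postpartum study (points; linear axes that differ between panels), with the group mean and SD beside the points. S55L hearts are higher for Myh7 and lower for Myh7b, Myl2 and Myl3 with no overlap with WT of the same state, while Myl7 is at 0 in every WT heart.

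In naive hearts, 3 of the 7 members that passed the filter rose (Myh7, Myl1 and Myl4) and 4 fell (Myh6, Myh7b, Myl2 and Myl3), where 43.5% of all genes tested were called, 21.9% higher and 21.6% lower. Myl4 passed only through S55L hearts. In a fit of only the naive groups it was not tested, and 2 of 6 members rose and 4 fell. In postpartum hearts 1 rose (Myh7) and the same 4 fell, where 31.5% of genes were called, 16.3% higher and 15.2% lower. The libraries of S55L and WT did not overlap for 5 of 7 members in naive hearts, against 32.2% of all genes, and for 6 of 7 in postpartum hearts, against 25.4%. Of the calls over all genes 50.3% were higher in naive and 51.8% in postpartum S55L hearts, and with total counts 73.0% and 77.9% were. No member changed the sign of its genotype difference under that scaling.

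The essential chains shifted relative to one another within libraries. The log2 Myl4 to Myl3 ratio was higher by 3.65 in S55L naive than in WT naive hearts (12.5-fold). In S55L PP hearts it was higher by 2.67 than in WT PP hearts (6.35-fold). Myl4 passed the filter only through S55L hearts and had 0 to 6 tags per WT heart, so the 0.5 added to each count weighs on these folds. Without WT naive 3, the heart with 0 Myl4 tags, the naive difference was 3.13. The log2 Myl1 to Myl3 ratio was higher by 2.57 (5.95-fold) in naive and by 2.22 (4.66-fold) in postpartum hearts. Each pair of groups was fully separated, with exact permutation p = 0.0079 (adjusted p = 0.048) in naive hearts and p = 0.029 (adjusted p = 0.078) in postpartum hearts. Myl3 stayed the main chain: Myl1 made up 1.61 ± 0.532% of essential light chain tags in S55L PP (SD, n = 4) and 1.04 ± 0.276% in S55L naive (SD, n = 5), against 0.340 ± 0.0696% in WT PP (SD, n = 4) and 0.170 ± 0.0164% in WT naive (SD, n = 5).

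The 8 genes together took a smaller part of all reads on genes in S55L hearts, at 2.13 ± 0.231% in S55L PP (SD, n = 4) and 2.34 ± 0.411% in S55L naive (SD, n = 5), against 3.86 ± 0.154% in WT PP (SD, n = 4) and 4.09 ± 0.163% in WT naive (SD, n = 5). Heavy chains made up 48.9% of the members' tags in S55L PP and 51.5% in S55L naive, against 38.1% in WT PP and 34.1% in WT naive. Other cardiomyocyte markers moved the same way: 9 of 12 fell in naive and 7 of 12 in postpartum hearts, and their sum ran between 50367 and 60764 CPM in S55L PP and 56970 and 67479 CPM in S55L naive, against 68435 to 97908 CPM in WT PP and 69036 to 96264 CPM in WT naive. All 7 macrophage markers rose in both states, and 5 of 7 fibroblast markers in naive and 6 of 7 in postpartum hearts. Of 7 endothelial markers 3 fell in naive and 2 in postpartum hearts and none rose, and of 5 erythroid markers 3 fell in naive hearts and none was called in postpartum hearts. Over all genes tested, 21.9% rose and 21.6% fell in naive hearts, and 16.3% rose and 15.2% fell in postpartum hearts. In libraries of mixed cells, fewer cardiomyocytes and less RNA per cardiomyocyte cannot be told apart. The part of these other cells in the myosin differences was not tested.

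A code in the deposited column names reads as a plate well, and its column number splits the samples almost as genotype does, with 1 WT library (WT PP 1) among 6 S55L libraries in column 2. Within that column, WT PP 1 had 91.8 CPM of Myh7, 23.2 CPM of Myh7b, 14028 CPM of Myl2 and 10482 CPM of Myl3. The 6 S55L libraries there had 551 to 1269 CPM of Myh7, 1.56 to 4.91 CPM of Myh7b, 4595 to 7085 CPM of Myl2 and 3189 to 5632 CPM of Myl3. WT PP 1 thus lay with the other WT hearts for these genes. For Myh6, it had 14618 CPM, inside the 8034 to 14860 CPM of the S55L libraries of the column. With 1 WT library in the column no test was made within it. A fit with the plate column as a term separates genotype from column only through this library. The genotype values of that fit, given for Myh6, Myl1 and Myl4 and as counts of genes called, therefore rest on WT PP 1.

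Between WT PP and WT naive hearts 2 of 11945 genes were called (0.0167%), neither of them a myosin chain. The largest member difference was Myl1, higher in WT PP by 0.89 (SE 0.21, 95% interval 0.47 to 1.32, edgeR adjusted p = 0.24); DESeq2 gave an adjusted p = 0.037, edgeR with no filter 0.0079, and edgeR without WT PP 1 0.033 with a value of 1.06. The log2 Myl1 to Myl3 ratio was higher by 0.98 in WT PP than in WT naive hearts with no overlap (exact permutation test, p = 0.0079, adjusted p = 0.048). Myl2 was the 1 member whose WT PP and WT naive hearts did not overlap, where 1.88% of genes showed that, with a value of -0.30 (SE 0.16, adjusted p = 0.78). Myh7 differed by 0.45 (SE 0.42, 95% interval -0.43 to 1.34, adjusted p = 0.90) and the log2 Myh7 to Myh6 ratio by 0.39 (exact p = 0.37).

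Between S55L PP and S55L naive hearts no gene of 11945 was called by edgeR (0%; 747 at an unadjusted p under 0.05, 18 called by DESeq2 and 20 by limma voom), and no member's hearts were free of overlap, where 2.25% of genes were. Myl1 was again higher, by 0.54 (SE 0.18, edgeR adjusted p = 0.64; 0.70 and adjusted p = 0.041 by limma voom). Myh6 differed by -0.37 (SE 0.17, 95% interval -0.71 to -0.03, edgeR adjusted p = 0.76) and Myh7 by 0.35 (SE 0.39, 95% interval -0.47 to 1.18). The log2 Myh7 to Myh6 ratio was higher by 0.68 in S55L PP hearts (exact permutation test, p = 0.11, adjusted p = 0.22).

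Whether pregnancy acted differently by genotype was tested as an interaction, in which no gene was called (0%; 444 at an unadjusted p under 0.05, 1 by DESeq2). The Myh6 estimate was -0.41 (SE 0.23, adjusted p = 0.997) and that of Myh7 -0.10 (SE 0.57, 95% interval -1.31 to 1.11). For the log2 Myh7 to Myh6 ratio the difference of differences was 0.29 (exact permutation test, p = 0.64). Averaged over both genotypes, a contrast added after Myl1 was seen to move alike in both, Myl1 was higher postpartum by 0.72 (SE 0.14, 95% interval 0.43 to 1.001, edgeR adjusted p = 0.049). It was 1 of 5 genes called (0.0419%; 0.0167% higher and 0.0251% lower) and the only member. The call was lost on leaving out any of 15 of the 18 libraries in turn (0.64 to 0.80 over all 18), so it sits on the threshold. Skeletal muscle markers were low in these hearts, with sums of 2.92 to 4.47 CPM in S55L PP, 2.40 to 6.25 CPM in S55L naive, 2.51 to 7.85 CPM in WT PP and 4.95 to 13.1 CPM in WT naive.

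**Figure D4:**
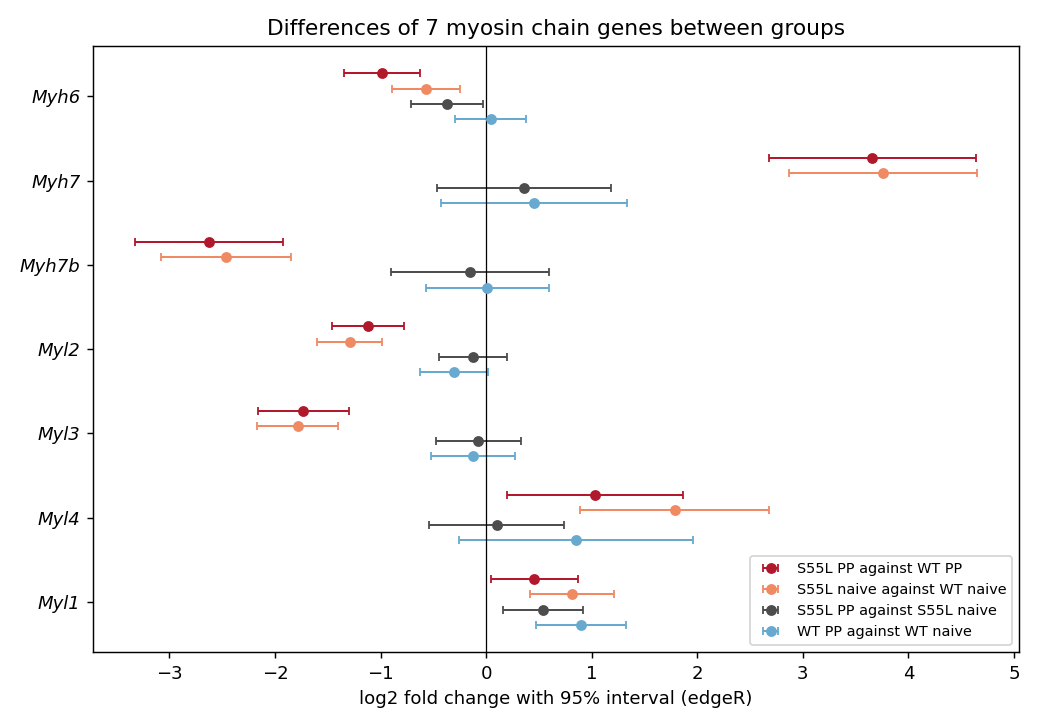
Log2 fold changes with 95% intervals (edgeR) of the 7 members that passed the filter, for both genotype comparisons and both postpartum comparisons. The genotype differences of Myh7 (3.66 and 3.76) and Myh7b (-2.63 and -2.46) lie far from 0, and among the postpartum comparisons only the intervals of Myl1 in both genotypes and of Myh6 in S55L hearts exclude 0 before adjustment.

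Hearts of 1 group also differed from each other. Of 21 pairs of members, none had deviations from the group mean of log2 CPM that were related after adjustment over 18 libraries. Myh7b and Myl2 were nearest (Pearson r = 0.74, permutation p = 0.0068, adjusted p = 0.14; Spearman rho = 0.75, adjusted p = 0.083; r = 0.68 without the 2 libraries farthest from the median). Myh6 and Myh7 did not move in opposite directions within groups (r = 0.41, permutation p = 0.095, adjusted p = 0.50; rho = 0.47, adjusted p = 0.43; r = 0.29 without the 2 farthest libraries). By the same measure the 5 genes most like Myh7 among 9329 ranked were Tbc1d23 (r = 0.87), Fstl1 (0.82), Tm4sf1 (0.81), Fzd2 (0.76) and Aqp7 (0.75) over 18 libraries. They were picked as the highest of 9329 values, and whether they exceed chance was not tested. Myl7 was too low for such a ranking.

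Genes around the myosin chains were read from lists chosen by function. None of 7 other sarcomeric heavy chains, such as the skeletal Myh1 and Myh4 and the embryonic Myh3, passed the filter in the postpartum study, and together they reached at most 1.25 CPM in S55L hearts and 1.15 CPM in WT hearts there. In the diet study 1 of the 7 was measured, and their sum ran between 7.27 and 53.5 CPM under EH301 and between 6.99 and 236 CPM under the control diet. Of 8 non-muscle and smooth muscle chains measured, 2 rose and 2 fell in naive S55L hearts (list median 0.03, against -0.004 over all genes) and 1 rose in postpartum S55L hearts (median 0.03). Of all genes tested, 43.5% were called in naive and 31.5% in postpartum hearts, so the naive count is near that share. Myl9, a smooth muscle regulatory chain, rose by 1.81 in naive (SE 0.24, adjusted p = 2.8e-06) and 1.93 in postpartum hearts (SE 0.27, adjusted p = 1.1e-05). Myh14, a non-muscle heavy chain, fell by 1.42 in naive hearts (SE 0.29, adjusted p = 0.00066), and Myh9 rose there by 0.42 (SE 0.14, adjusted p = 0.016). Of 7 measured smooth muscle and pericyte markers, 1 rose and 4 fell in naive and 1 rose and 2 fell in postpartum S55L hearts (list medians -0.66 and -0.42), against those same shares over all genes. The 1 that rose was Acta2, smooth muscle actin, by 3.45 in naive (SE 0.46) and 2.46 in postpartum hearts (SE 0.49). The markers summed to 1458 to 2177 CPM in S55L PP and 1555 to 3565 CPM in S55L naive hearts, against 478 to 875 CPM in WT PP and 617.6 to 843.2 CPM in WT naive hearts. The part of these cells in the Myl9 difference was not tested.

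Of 7 measured myosin kinase and phosphatase genes, 2 fell and none rose in either state (list medians -0.29 and -0.16), where 21.6% of all genes tested fell in naive and 15.2% in postpartum hearts. Mylk3, the kinase that phosphorylates Myl2 in cardiomyocytes, had 189 to 236 CPM in S55L naive hearts against 419 to 497 CPM in WT naive hearts, a difference of -1.15 on the log2 scale (SE 0.16; adjusted p = 1.2e-06, edgeR). In postpartum hearts its value was -0.80 (SE 0.17, adjusted p = 0.00076). Mylk4, a related kinase, averaged 39.3 ± 6.85 CPM in S55L naive and 168 ± 16.8 CPM in WT naive hearts (SD, n = 5 each), a log2 difference of -2.09 (SE 0.16; adjusted p = 9.0e-11), and its postpartum value was -1.63 (SE 0.18, adjusted p = 6.8e-08). Of 5 measured binding proteins and chaperones 2 fell in each state (medians -0.31 and -0.72): Smyd1, a methyltransferase needed for thick filament assembly, by 0.75 in naive (SE 0.13) and 0.81 in postpartum hearts (SE 0.15), and Mybpc2, the fast skeletal myosin-binding protein C, which fell by 1.77 in naive (SE 0.32) and 2.05 in postpartum hearts (SE 0.33).

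Of 9 measured genes of the thyroid hormone axis, 1 rose and 5 fell in naive and 1 rose and 4 fell in postpartum S55L hearts (list medians -0.60 and -0.41), where 43.5% and 31.5% of all genes were called in either direction. Dio2, the deiodinase that turns T4 into active T3, averaged 12.0 ± 4.82 CPM in S55L naive and 0.902 ± 1.02 CPM in WT naive hearts (SD, n = 5 each), a log2 difference of 3.82 (SE 0.56; edgeR, adjusted p = 6.7e-06). In postpartum hearts its value was 4.20 (SE 0.58, adjusted p = 4.4e-06). The WT naive level of Dio2 is too low to pass the count filter by itself, so its call depends on the S55L hearts, where it is higher. Rxra, a retinoid X receptor that pairs with thyroid hormone receptors, fell by 0.76 (SE 0.15) in naive and 0.66 (SE 0.17) in postpartum hearts. Ncor1, a corepressor of unliganded nuclear receptors, fell by 0.77 in naive hearts (SE 0.17, adjusted p = 0.00056), and Rxrg, another retinoid X receptor, fell by 0.68 in naive (SE 0.17, adjusted p = 0.0016) and 1.06 in postpartum hearts (SE 0.19, adjusted p = 6.9e-05).

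Of 19 measured transcription regulators of cardiac myosin genes, 1 rose and 7 fell in naive and none rose and 7 fell in postpartum S55L hearts (list medians -0.22 and -0.30). These 8 and 7 of 19 are near the 43.5% and 31.5% of all genes called in either direction, but the calls of the list were mostly lower. Over all genes tested, 21.9% rose and 21.6% fell in naive hearts. In postpartum hearts 16.3% rose and 15.2% fell. Gata6, a zinc finger activator, averaged 40.8 ± 2.65 CPM in S55L naive and 100.8 ± 19.9 CPM in WT naive hearts (SD, n = 5 each), a log2 difference of -1.31 (SE 0.15; edgeR, adjusted p = 1.3e-07), and its postpartum value was -1.09 (SE 0.17). Tbx5, a T-box factor, fell by 1.197 in naive (SE 0.17) and 0.73 in postpartum hearts (SE 0.19). Irx4, a factor of ventricular muscle, fell by 0.75 (SE 0.18) in naive and 0.999 (SE 0.20) in postpartum hearts. Nr2f2, an orphan nuclear receptor prominent in atrial muscle, fell by 0.83 in naive (SE 0.18) and 0.57 in postpartum hearts (SE 0.21). No gene of any of these lists was called between the diets, between PP and naive hearts of either genotype or in the interaction.

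Atrial markers did not move as 1 group. Of 6 measured, 4 rose and 2 fell in both states, where 43.5% of all genes were called in naive and 31.5% in postpartum hearts. Bmp10 had 10.2 to 19.4 CPM in S55L naive and 7.81 to 11.5 CPM in S55L PP and was at 0 in every WT heart. Bmp10, a growth factor of atrial muscle, was thus at least 44.1-fold higher in naive and 29.1-fold higher in postpartum S55L hearts, against a floor of 3 counts over the WT group. It passed the count filter only through S55L hearts, where it is higher. Dkk3, a secreted Wnt modulator, rose by 3.43 (SE 0.34) in naive and 3.61 (SE 0.35) in postpartum hearts. Kcnj3, an atrial potassium channel gene, fell by 2.69 (SE 0.19, edgeR adjusted p = 1.7e-11) in naive and 2.49 (SE 0.22, adjusted p = 1.4e-09) in postpartum hearts. Nppa, the natriuretic peptide gene that returns with Myh7 in stressed ventricles, rose by 2.97 (SE 0.54) and 3.25 (SE 0.61), and Acta1, skeletal actin, by 2.30 (SE 0.36) in naive hearts (0.90, SE 0.38, adjusted p = 0.085 in postpartum hearts). Chchd10 was 0.73 higher in S55L naive hearts (SE 0.19, adjusted p = 0.0028), with 0.29 (SE 0.21, adjusted p = 0.31) in postpartum hearts; 3' tags do not read the mutated codon.

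In the diet study no difference of a myosin chain between the diets was detected. By the same well code, the EH301 libraries used all stood in plate column 3 and the control diet libraries in column 1 or 2. Diet and plate column therefore cannot be told apart in any diet value. No gene of 10335 tested was called by edgeR (0%; 1 by limma voom), and 6 of the 8 members passed the filter. Myh6 had 8031, 7464, 7264 and 7316 CPM under EH301, against 5104, 7288, 4761 and 7163 CPM under the control diet (log2 fold change 0.31, SE 0.30, 95% interval -0.35 to 0.96). Myh7 had 622, 649, 904 and 2494 CPM under EH301, against 988, 1807, 1812 and 951 CPM under the control diet (-0.25, SE 0.46, 95% interval -1.26 to 0.75). Without EH301 diet 10, the heart with 2494 CPM, the Myh7 value was -0.94 (95% interval -1.78 to -0.09), not called after adjustment over all genes (edgeR, adjusted p = 0.99997). The groups overlapped for both genes, and every adjusted p of the 6 members was 0.9999.

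Myh7 made up 7.19, 8.0, 11.1 and 25.4% of Myh6 and Myh7 tags under EH301, against 16.2, 19.9, 27.6 and 11.7% under the control diet. The means were 12.9 ± 8.50% under EH301 and 18.8 ± 6.71% under the control diet (SD, n = 4 each), and the log2 ratio differed by -0.77 (exact permutation test, p = 0.23). The heart highest under EH301 lay inside the control range, so the groups overlapped. Without that heart the difference of the ratios was -1.23.

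Myh7b had 20.4, 5.84, 10.5 and 17.9 CPM under EH301, against 2.22, 11.7, 7.32 and 6.38 CPM under the control diet (0.86, SE 0.40, 95% interval -0.01 to 1.74). The log2 Myh7b to Myh7 ratio was higher by 1.36 under EH301 with no overlap, at the smallest p that 4 against 4 libraries allow (exact permutation test, p = 0.029, adjusted p = 0.078). No single member's hearts were free of overlap between the diets, where 1.5% of genes were. Myl2 had 6252, 5435, 5526 and 6836 CPM under EH301, against 7106, 6310, 5555 and 6849 CPM under the control diet (-0.10, SE 0.29).

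Myl1 and Myl3 moved with skeletal muscle markers in 2 libraries. Myl3 had 7429, 15497, 6856 and 13127 CPM under EH301, against 30678, 12250, 8248 and 11820 CPM under the control diet (-0.55, SE 0.46, 95% interval -1.56 to 0.45). Myl1 had 120.0, 203.3, 115.6 and 121.8 CPM under EH301, against 269, 138.5, 96.8 and 172.9 CPM under the control diet (-0.26, SE 0.33). Both genes were highest in EH301 diet 8 or control diet 1, the 2 shallowest libraries, and 10 skeletal muscle markers summed to 730 CPM in EH301 diet 8 and 2787 CPM in control diet 1, against 22.8 to 81.0 CPM in the other 6. Mylpf, a fast skeletal regulatory light chain, stood at 276 CPM in EH301 diet 8 and 1141 CPM in control diet 1, and Myh4, a fast skeletal heavy chain, at 50.6 and 222 CPM. Without these 2 libraries the value was -0.25 (SE 0.28) for Myl3 and -0.20 (SE 0.20) for Myl1, again with no gene called.

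**Figure D5:**
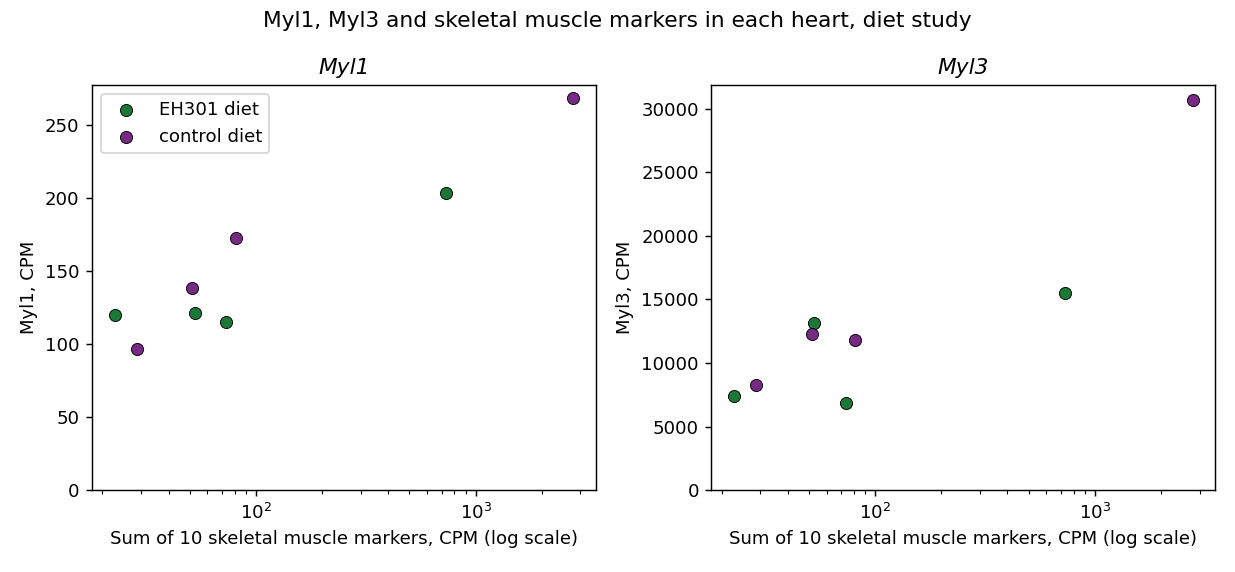
Myl1 (left) and Myl3 (right) in CPM against the sum of 10 skeletal muscle markers (log scale) in each of the 8 hearts of the diet study, coloured by diet. Control diet 1 (2787 CPM of markers) and EH301 diet 8 (730 CPM) stand apart from the other 6 hearts (22.8 to 81.0 CPM) and hold the highest Myl1 and Myl3.

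The low members stayed low in the diet study. Myl4 had 5, 6, 10 and 3 tags under EH301, against 1, 1, 9 and 6 tags under the control diet. Myl7 had 4, 0, 6 and 2 tags under EH301, against 1, 5, 14 and 4 tags under the control diet. Neither passed the filter. Mhrt had 42.0 to 103.4 CPM under EH301 and 26.6 to 88.9 CPM under the control diet (0.18, SE 0.37). The tables of the 2 studies were scaled apart, so levels were not compared between them.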

How the data were processed

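Hearts were sequenced from 3' tags (QuantSeq FWD). Per the submitters' processing notes, the tools named are Trimmomatic 0.39, STAR 2.7.0f, HTSeq 0.6.1 and DESeq2 on build GRCm39.p6. The authors deposited raw counts per gene in 1 table per study. Symbols and loci came from GENCODE on GRCm38, and 51487 and 52073 IDs had a symbol. Reads on no gene (the HTSeq summary lines) were left out, and reads on genes were 66.3% to 69.2% of all reads in S55L and 58.3% to 61.6% in WT libraries of the postpartum study.

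Counts were fitted over all genes with edgeR 4.0.16 (filterByExpr, TMM, robust quasi-likelihood test, all groups of a study in 1 fit, Benjamini-Hochberg, threshold 0.05) in R 4.3.3, checked on simulated data. CPM are TMM-scaled. A fold change is a log2 difference. Isoform ratios are log2((count + 0.5)/(count + 0.5)) within a library, tested by exact permutation over libraries, two-sided. DESeq2 1.42.0 and limma 3.58.1 voom served as alternatives, with other scalings, no filter, thinning, all deposited columns, a plate column term, a replicate block and each library left out. Same-numbered S55L PP and WT PP hearts deviated together (correlation 0.13 to 0.34 over 4 pairs, each above 0.1). The number was therefore taken to pair those groups. This was judged from the same counts, and hearts with different numbers were not compared. The other pairs of groups failed this check, although S55L naive and WT PP hearts also stayed above 0 (0.029 to 0.236). The number's origin is not given in the sources used here.

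The members, the lists and the rule for named genes (all members; up to 3 called genes of each list with the lowest adjusted p; Acta1, Nppa, Chchd10; the 5 genes most like Myh7 above a mean of 5 CPM) were chosen with earlier results of these data known. Myl5 had no row under that symbol. Intervals and floors cover counting or library error only.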

Additional observations from a re-analysis of the deposited data

Results flagged for a closer look

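Within groups of 4 or 5 hearts, 3 libraries lay far from the others of their group for a myosin chain, where 46 groups were looked at and chance alone sets apart about 5% of them. Myh6 was lowest in S55L PP 1, at 7003 CPM (25057 tags), against 8288 to 8450 CPM in the other 3 hearts of that group. Myh7 was highest in EH301 diet 10, at 2494 CPM (6698 tags), against 622 to 904 CPM in the other 3. Myl1 was highest in EH301 diet 8, at 203.3 CPM (209 tags), against 115.6 to 121.8 CPM in the other 3, and that library also held 730 CPM of skeletal muscle markers.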

How the results depend on the processing

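The genotype calls of Myh7, Myh7b, Myl2 and Myl3 kept direction and call under every alternative run, and no myosin value that was called changed sign. Of these runs, the fit with the plate column as a term rests on WT PP 1 alone for genotype, since no other WT library stood outside plate column 1. The counts of genes called were less stable. With the plate column as a term 2873 genes were called in S55L naive against WT naive, 2108 in S55L PP against WT PP, 21 in WT PP against WT naive, 1 in S55L PP against S55L naive, 2 in the interaction and 62 in the average over genotypes. With no filter 21, 37, 5 and 95 genes were called in the last 4 of these, and with DESeq2 12, 18, 1 and 27. With limma voom 20 genes were called in S55L PP against S55L naive, 12 in the average and 1 between the diets. All deposited columns as if separate gave 10 in S55L PP against S55L naive and 9 in the average, thinning gave 2 there, 1 in the interaction and 3 in the average, total counts 3 and a fit of only the compared groups 3 in S55L PP against S55L naive. Leaving out each library gave 2 to 10 genes in WT PP against WT naive, 0 to 4 in S55L PP against S55L naive, 0 to 2 in the interaction and 2 to 18 in the average, each highest value without WT PP 1 except that of S55L PP against S55L naive, without WT PP 5. The cause was not tested.

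With the replicate number as a block, 5475, 4122, 2, 0 and 0 genes were called in the 4 comparisons and the interaction, and of the members' calls only that of Myl1 in S55L PP against WT PP differed. An exact sign-flip test of same-numbered pairs of the log2 Myh7 to Myh6 ratio gave 4.72 with p = 0.125 in S55L PP against WT PP, the groups taken as paired, and 4.43 with p = 0.0625 in the naive groups, whose numbers failed the pairing check; these are the smallest p that 4 and 5 pairs allow. With all deposited columns as if separate, S55L PP against WT PP gave 4.79 for Myh7 to Myh6, 2.06 for Myl7 to Myl2 (not readable as a shift, since it is set by the 0.5 added to WT counts of 0), 2.62 for Myl4 to Myl3, 2.14 for Myl1 to Myl3 and -6.48 for Myh7b to Myh7, each with a smaller exact p because 5 against 5 columns allow more regroupings. Leaving out each library in turn left S55L naive against WT naive at 4.28 to 4.65 for Myh7 to Myh6, 3.13 to 3.95 for Myl4 to Myl3, 2.49 to 2.78 for Myl1 to Myl3 and -6.61 to -6.09 for Myh7b to Myh7, and WT PP against WT naive at 0.85 to 1.04 for Myl1 to Myl3; without any 1 WT naive library the naive ratios kept an exact permutation p = 0.0079 but had adjusted p = 0.0595, since the Myl1 to Myl3 p of WT PP against WT naive rose to 0.029 in the same family, and that ratio lost its call without any 1 library of its groups, where fewer regroupings are possible. Depth limits Myl4, Myl7 and Myh7b, at 0 to 64 tags per library.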
